A study of Mus musculus with 54 samples.

Results

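The genes that break down amino acids and carry their nitrogen into urea were followed in the liver transcriptome of mice exposed to di-isononyl phthalate (DINP), a plasticizer. The 43 genes were chosen by their known roles in these pathways, with earlier results of these data known. All 43 were found among the 20143 gene symbols of the table, each in a single row, and all 43 passed the filter on low values. The livers came from 54 male C57BL/6J mice, wild type by their labels, that were singly housed and fed a high-fat diet from 8 weeks of age. For 20 weeks they ate gelatin pellets that held no DINP in the control group (14 mice), or DINP at 1.5 (13 mice), 15 (13 mice) or 150 mg/kg bw/d (14 mice). All groups shared the diet, so that control here means an obese mouse without DINP, and no lean mice were analysed here. RNA of the medial lobe was read from the 3′ ends of polyadenylated transcripts, with 1 library per mouse.

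Amino acids that are not needed for protein are degraded mainly in the liver. Their amino groups are passed by transaminases to glutamate and aspartate, and the hepatocyte turns the resulting ammonia into urea in the urea cycle, which runs partly in the mitochondrion and partly in the cytosol. The carbon skeletons are burned or become glucose. Many of these genes are known to be raised by glucagon, glucocorticoids and protein intake, and the liver lobule is zonated, with the urea cycle richest around the portal vein and glutamine synthesis in a narrow layer around the central vein.

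Levels are given as the deposited values, which are TPM (transcript abundances scaled to a fixed total per sample) that the authors rounded to whole numbers and scaled between samples. They are scaled by transcript length, so levels of different genes can be set side by side only with caution for a 3′ method, which reads each transcript about once whatever its length. The comparisons between genes below are of these scaled values and do not rank numbers of transcripts. The values summed to 747258 to 1076439 per mouse, and the members took 0.740% to 1.08% of that sum (mean 0.913% ± 0.0839, SD, n = 54). The hepatocyte markers summed to 25090 to 54373 over all mice, against 52.4 to 207 for the markers of Kupffer cells and macrophages and 57.2 to 100.4 for those of endothelial cells. Differences between doses were tested with limma across all 11431 rows with a mean of at least 1. They are given as log2FC of the value + 1 with a standard error (SE), and a gene was called when its adjusted p (Benjamini-Hochberg over all rows) was under 0.05. Fewer hepatocytes and less RNA per hepatocyte cannot be told apart in whole liver.

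A set of 8 libraries stood apart from the other 46 on the first principal component of all tested genes except the members, which held 13.7% of the variance. Their scores were 25.4 to 52.9, and the highest score among the others was 8.11. They were 6 of the 13 libraries at 15 mg/kg bw/d (replicates 4 to 9), control replicate 1 and replicate 10 at 150 mg/kg bw/d, and none at 1.5 mg/kg bw/d. Of the members, Ftcd, the last enzyme of histidine breakdown, had values of 39.8 to 72.7 in these 8 and of 99.2 to 271 in the other 46, without overlap. That is 1 of 43 members (2.33%), beside 1.64% of all tested rows whose ranges did not overlap. For the other 42 members the ranges overlapped, with the widest gaps in log2 mean for Oat (0.70 higher in the 8) and Afmid (0.59 lower). No label marks these libraries as a batch, and what sets them apart was not tested. Results at 15 mg/kg bw/d are therefore given with all 54 libraries and again with the 46.

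In control mice the members spanned from Mat1a, which makes S-adenosylmethionine and had a mean of 1288 ± 237 (SD, n = 14), to Bckdk, the kinase that switches off branched-chain oxidation, at 4.23 ± 1.48. The urea cycle was led by Arg1, which releases urea from arginine, at 748 ± 102. Ass1, which joins citrulline to aspartate, stood at 306 ± 57.4 and Asl, which splits off arginine, at 216 ± 50.0. Otc, which forms citrulline in the mitochondrion, had 144 ± 19.8, Cps1, which fixes ammonia, 66.3 ± 16.6 and Nags, which makes the activator of Cps1, 23.7 ± 3.77. The mean values of Asl and Otc differed by more than either SD.

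Among the genes of nitrogen transfer, Glul, the glutamine synthetase of the central-vein layer, had 445 ± 89.5, Glud1, which frees ammonia from glutamate, 336 ± 48.8 and Gls2, the liver glutaminase, 129 ± 24.4. The aspartate transaminases Got2 of the mitochondrion (98.7 ± 7.74) and Got1 of the cytosol (88.4 ± 28.6) differed by less than the SD of Got1. The means of the alanine transaminases Gpt (88.8 ± 12.0) and Gpt2 (62.8 ± 9.36) lay further apart than either SD. Their longest coding transcripts have 1792 and 3639 bases, so this order also depends on the length scaling. Got2 was the steadiest member, with a coefficient of variation of 7.84% in control mice, and Got1 was among the most variable at 32.3%.

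The tyrosine pathway held Hpd (569 ± 184), Hgd (522 ± 75.4), Tat (216 ± 63.9), the transaminase that opens the pathway, and Fah (215 ± 21.3), which closes it. For tryptophan, Tdo2, the dioxygenase that opens the ring in hepatocytes, had 366 ± 63.8, and Ido2, its relative, 14.8 ± 4.12. Downstream stood Afmid (66.4 ± 14.6), which yields kynurenine. Haao (288 ± 43.4), Kmo (53.1 ± 6.90) and Kynu (19.8 ± 3.1) are enzymes on the way from kynurenine towards NAD. Histidine is broken down in the order Hal (261 ± 80.4), Uroc1 (87.3 ± 10.8), Amdhd1 (81.5 ± 12.4) and Ftcd (171 ± 35.4).

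For the sulphur amino acids, Bhmt, which remethylates homocysteine with betaine, had 355 ± 114, and Cbs (151 ± 28.5) and Cth (145 ± 43.8), the enzymes that pass its sulphur to cysteine, differed by less than their SD. The longest coding transcripts of Cbs and Cth have 6226 and 1815 bases, so their closeness also depends on the length scaling. The branched-chain dehydrogenase complex was measured through its E1 subunits Bckdha (148 ± 20.8) and Bckdhb (101 ± 15.7) and its E2 core Dbt (20.6 ± 4.14), and leucine breakdown also through Ivd (30.1 ± 3.62). Sds, which deaminates serine to pyruvate, had 212 ± 46.2, and Amt (32.1 ± 6.52) and Gldc (27.7 ± 9.59), subunits of the glycine cleavage system, differed by less than the SD of Gldc. The same limit holds for Amt and Gldc, with 2082 and 3767 bases. Oat, which degrades ornithine, had 160 ± 42.9, the proline and hydroxyproline dehydrogenases Prodh and Prodh2 had 42.5 ± 12.3 and 77.1 ± 9.34, and Aass, which opens lysine breakdown, 60.8 ± 10.9. The widest spread over all 54 mice was that of Bhmt, whose highest value was 11.3 times its lowest.

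**Figure D1:**
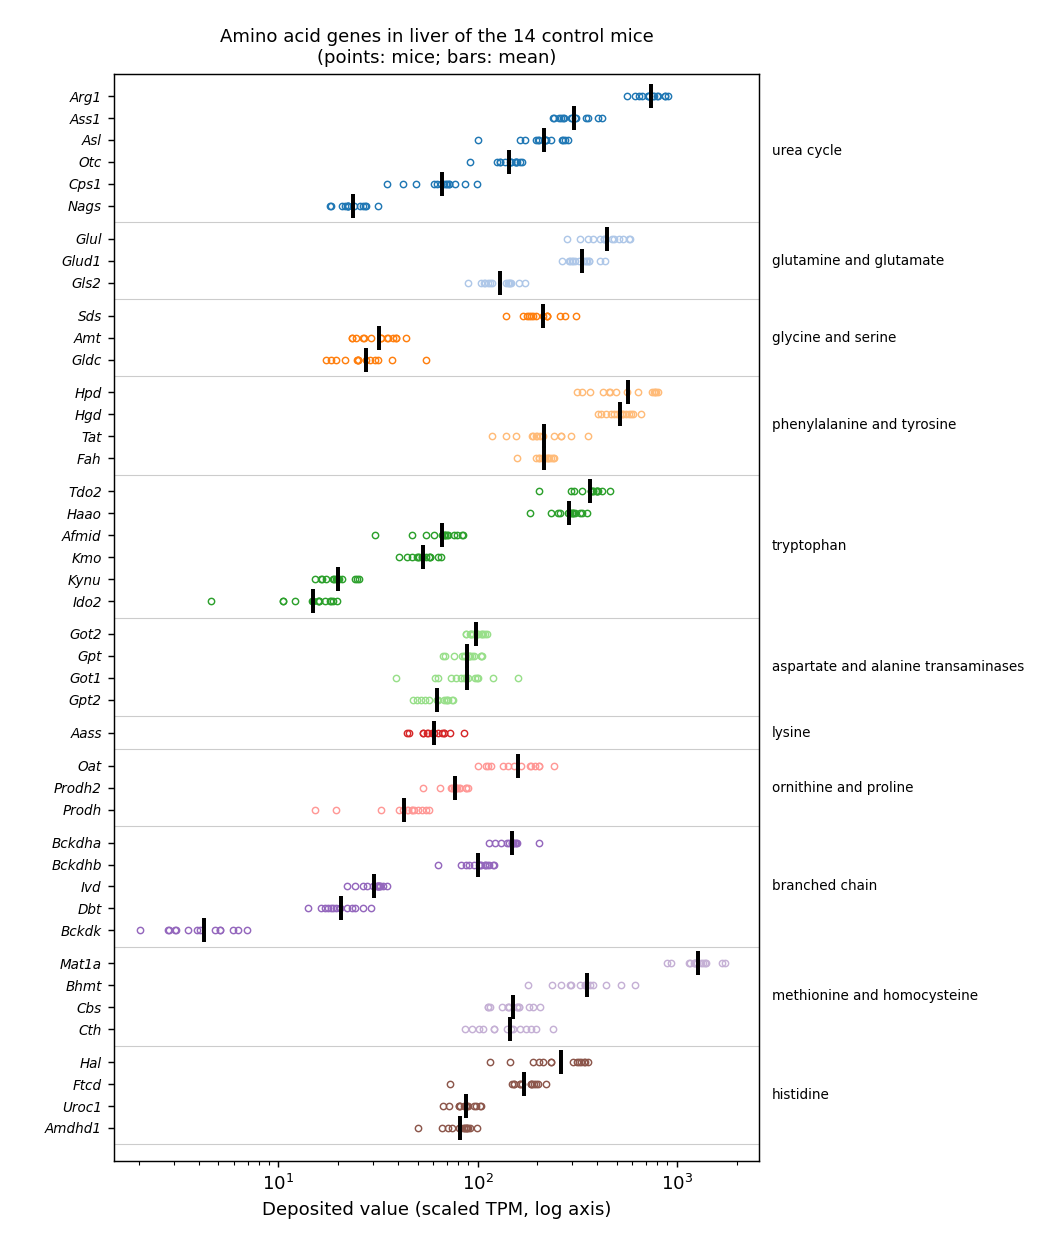
Deposited values (scaled TPM, log axis) of the 43 members in the 14 control mice, grouped by amino acid, with a point per mouse and a bar at the mean. Mat1a and Arg1 are highest with means of 1288 and 748, and Bckdk is lowest at 4.23.

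At 1.5 mg/kg bw/d a single member was called. Kmo, the kynurenine hydroxylase, rose. Its values in control mice were 40.5 at the lowest, 52.5 at the median and 65.2 at the highest, and in exposed mice 51.0, 64.5 and 72.4. The ranges overlapped, and 12 of 13 exposed mice lay above the control median (log2FC 0.28 ± 0.08, SE; limma adjusted p = 0.0483). Kmo had a median of 58.4 at 15 and of 59.0 at 150 mg/kg bw/d and was not called against control. Of all tested rows, 1.2% were called at this dose, so 1 of 43 members (2.33%) is near the background. The call was close to the threshold: it was kept without control replicate 7, 13 or 14 or without replicate 3 at 1.5 mg/kg bw/d, and lost without any other single library of the comparison (adjusted p up to 0.0919). With the 8 libraries left out that stood apart, Kmo was again the single member called (log2FC 0.27, adjusted p = 0.00940; background 2.53%).

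The next members by p at 1.5 mg/kg bw/d were not called. The urea cycle enzyme Arg1 had a log2FC of 0.22 (adjusted p = 0.168), Tat of -0.34 (adjusted p = 0.262), Oat of -0.41 (adjusted p = 0.295) and Gldc of -0.35 (adjusted p = 0.298). The 95% interval of the difference ran from 0.07 to 0.38 for Arg1 and from -0.76 to -0.06 for Oat. Such intervals are not adjusted for the number of genes, and these members were picked by their small p. Of the 43 members 19 were above 0 and 24 below, with a median log2FC of -0.03 beside 0.0028 over all rows.

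At 15 mg/kg bw/d, 6 members were called: the urea cycle genes Otc and Arg1, Tdo2 of tryptophan breakdown and Bckdhb and Dbt of the branched-chain complex rose, and Ftcd fell. The 6 of 43 (14.0%) stand beside 14.2% of all tested rows, so the members changed about as often as other genes at this dose. All 6 urea cycle genes had a log2FC above 0 (median 0.33, beside -0.0010 over all rows), but 2 of the 6 were called.

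Otc, on chromosome X from 10252305 to 10321024 of GRCm38, had values of 91.7 at the lowest, 148 at the median and 167 at the highest in control mice, and of 137, 194 and 245 at 15 mg/kg bw/d. The ranges overlapped, but 12 of 13 exposed mice lay above the control median. The log2FC was 0.42 ± 0.08 (SE; limma adjusted p = 0.000203), a fold of 1.34. Its median was 155 at the lowest and 145 at the highest dose, within the control range. In the other 46 libraries the difference was 0.43 (adjusted p = 0.00320), and the 7 remaining mice at 15 mg/kg bw/d had values of 171 to 213.

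Arg1, on chromosome 10 from 24915221 to 24927484, went from 566, 746 and 909 in control mice (lowest, median and highest) to 791, 911 and 1123 at 15 mg/kg bw/d. All 13 exposed mice lay above the control median (log2FC 0.34 ± 0.08, SE; adjusted p = 0.00161). The median was 877 at the lowest and 789 at the highest dose, and neither dose was called. Without the 8 libraries the log2FC was 0.43 (adjusted p = 0.00399). Otc and Arg1 passed under each of the 13 alternatives of processing and in each of the 27 fits that left out a single library.

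Ass1, on chromosome 2 from 31470207 to 31520672, moved with the choice of libraries. Its values were 239, 297 and 420 in control mice (lowest, median and highest), 194, 316 and 480 at 1.5, 229, 428 and 598 at 15, and 127, 285 and 422 at 150 mg/kg bw/d. At 15 mg/kg bw/d 11 of 13 mice lay above the control median, and with all libraries the difference was not called (log2FC 0.41 ± 0.15, SE; adjusted p = 0.0564). It was called without any one of control replicates 9 and 14 and replicates 6 and 7 at 15 mg/kg bw/d. With the 8 libraries left out it was 0.65 (adjusted p = 0.0101), and the 7 remaining mice at 15 mg/kg bw/d had values of 376 to 598.

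Asl had a log2FC of 0.32 (adjusted p = 0.0932) and Cps1 of 0.31 (adjusted p = 0.266) at 15 mg/kg bw/d, and without the 8 libraries of 0.31 (adjusted p = 0.270) and 0.58 (adjusted p = 0.0916). Values of Cps1 ran from 41.7 to 129.6 at 15 mg/kg bw/d and from 35.2 to 99.3 in control mice. Nags differed by 0.01, with a 95% interval of -0.16 to 0.18.

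**Figure D2:**
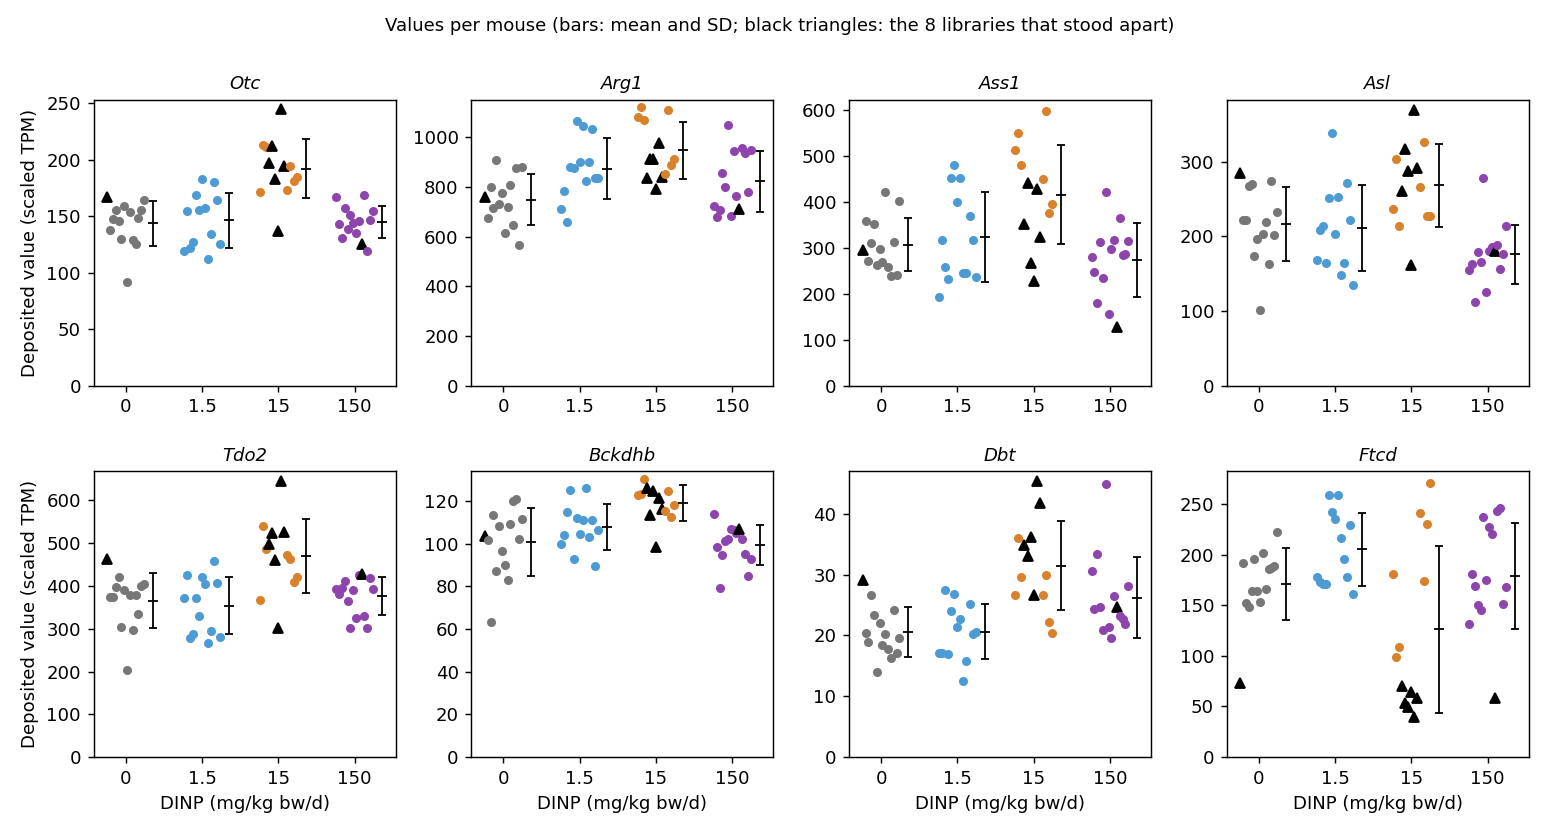
Deposited values (scaled TPM) of 8 members in each mouse by DINP dose (mg/kg bw/d), with the mean and SD beside each group and the 8 libraries that stood apart as black triangles. All circles and triangles of Arg1 at 15 mg/kg bw/d lie above the control median of 746, while in Ftcd the triangles, at 39.8 to 72.7, lie below all circles.

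The bases before the start site of Otc are shown because it had the smallest adjusted p of the members at 15 mg/kg bw/d. They are the 250 bases upstream of the start in RefSeq (GRCm38.p6), at chrX:10252055-10252304 on the plus strand, 5′ to 3′, and hold no exon of GENCODE M21. Capitals would mark a motif, and there are none.
Otc: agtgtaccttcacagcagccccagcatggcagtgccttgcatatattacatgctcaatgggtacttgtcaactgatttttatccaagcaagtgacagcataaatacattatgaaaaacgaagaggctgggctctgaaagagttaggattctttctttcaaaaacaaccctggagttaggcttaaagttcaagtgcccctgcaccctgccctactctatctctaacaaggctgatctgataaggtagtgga
Both strands were searched for the letters of known elements. These were TATAAA of the TATA box and the box CCAAT. The E-box was searched as CACGTG, which clock factors bind among others. The cAMP response element was searched in its short form TGACG and its full form TGACGTCA, which overlap. The C/EBP site was searched as TTGCNNAA and the direct repeat bound by PPARA as AGGNCANAGGNCA, and the glucocorticoid response element by its consensus. Otc held none of these letters, which says nothing of other windows or of the factors. Of the other members called at 15 mg/kg bw/d that have a window, Tdo2 held the box CCAAT and the letters of the TATA box, Bckdhb held CCAAT in 2 places, and Ftcd held the TATA letters 29 to 24 bases before its RefSeq start and the short cAMP form. Ass1 held CACGTG 36 to 31 bases before its start. These windows are not printed here. Windows for 32 of the 43 members were in the RefSeq table, and 17 of them (53.1%) held CCAAT, 6 (18.8%) TATAAA, 4 (12.5%) the C/EBP letters, 2 (6.25%) CACGTG, 2 TGACG and 0 the full cAMP element, the direct repeat or the glucocorticoid element. Over all 32851 windows the shares were 33.8%, 12.4%, 9.56%, 6.02%, 17.8%, 1.55%, 0.338% and 0.00913%, in the same order. Members were counted with a single window per gene and the background with every window, so the shares are not strictly alike.

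Tdo2, on chromosome 3 from 81957090 to 81976202, had 204, 379 and 463 in control mice (lowest, median and highest) and 301, 473 and 646 at 15 mg/kg bw/d, with 11 of 13 exposed mice above the control median (log2FC 0.36 ± 0.10, SE; adjusted p = 0.00894). Its median was 371 at the lowest and 391 at the highest dose. In the other 46 libraries the size was nearly the same (0.34) but the call was lost (adjusted p = 0.0568). Of the other tryptophan genes Ido2 (0.32), Kynu (0.24), Kmo (0.13), Afmid (-0.12) and Haao (-0.23), given as log2FC, none was called.

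Of the 5 branched-chain members 2 were called. Dbt had 14.0, 19.9 and 29.1 in control mice (lowest, median and highest) and 20.4, 30.0 and 45.3 at 15 mg/kg bw/d. All 13 exposed mice lay above the control median, although the ranges overlapped (log2FC 0.58 ± 0.12, SE; adjusted p = 0.000403). Its median was 20.6 at the lowest and 24.5 at the highest dose. Bckdhb went from 63.5, 103 and 121 to 98.4, 122 and 131, with 12 of 13 exposed mice above the control median (log2FC 0.25 ± 0.07, SE; adjusted p = 0.00712), and had a median of 106 at the lowest and 102 at the highest dose. Without the 8 libraries the log2FC was 0.43 for Dbt (adjusted p = 0.0445) and 0.28 for Bckdhb (adjusted p = 0.0344). The E1 partner Bckdha (0.09), the kinase Bckdk (0.11) and Ivd (0.16) were not called.

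Ftcd, on chromosome 10 from 76575648 to 76590338, had 72.7, 176 and 222 in control mice (lowest, median and highest), 161, 196 and 259 at 1.5, 39.8, 99.2 and 271 at 15, and 58.5, 172 and 246 at 150 mg/kg bw/d. Mice given 15 mg/kg bw/d were split, 6 from 39.8 to 70.6 and 7 from 99.2 to 271. With all libraries it fell by 0.69 on the log2 scale (SE 0.22, adjusted p = 0.0278). With the 8 libraries left out the log2FC was -0.01 (adjusted p = 0.973), so the decrease rested on the 6 libraries at 15 mg/kg bw/d that stood apart. Leaving out replicate 4, 5, 6, 8 or 9 of that group alone also ended the call (adjusted p up to 0.0736), as did 7 of the 13 alternatives of processing. No other histidine gene was called.

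In the other 46 libraries 6 of 43 members (14.0%) were called at 15 mg/kg bw/d, all higher: Otc, Arg1, Ass1, Bckdhb, Dbt and Fah (log2FC 0.27 for Fah, adjusted p = 0.0486). Here 5.31% of all tested rows were called, 316 higher and 291 lower. With all libraries Fah was not called (log2FC 0.22, adjusted p = 0.0555). The members' median log2FC was 0.09 with all libraries and 0.14 without the 8.

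**Figure D3:**
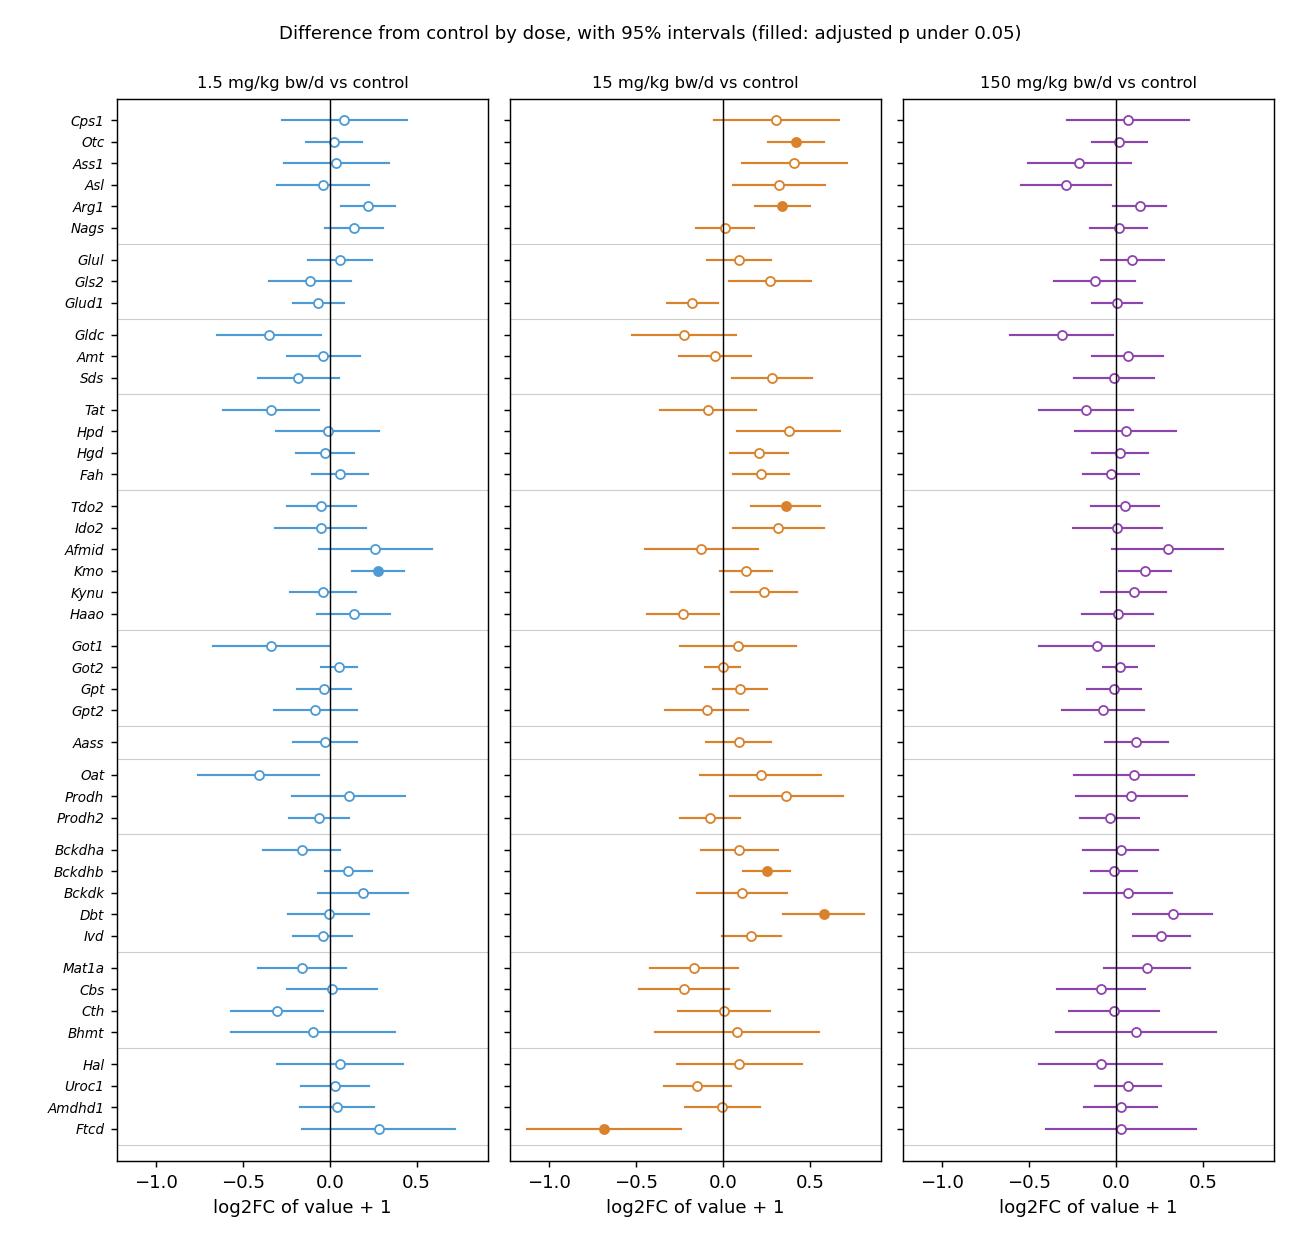
Difference of each member from control (log2FC of the value + 1) at each dose (mg/kg bw/d) with 95% intervals, all 54 libraries, filled where the adjusted p was under 0.05. Filled points are Kmo at 1.5 mg/kg bw/d and Otc, Arg1, Tdo2, Bckdhb, Dbt and Ftcd at 15 mg/kg bw/d, and there are none at 150 mg/kg bw/d.

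Other measures moved with the group at 15 mg/kg bw/d. Over 10932 genes the log2FC against control fell with the GC content of the transcript (Spearman rho -0.19; genes share libraries, so no p is given), and over 10924 genes rho was -0.22 with the 8 libraries left out. The members range from 39.6% GC (Tdo2) to 60.1%, with 41.1% in Otc, 47.7% in Arg1 and 57.7% in Ftcd. After the trend with GC was taken out of each library, 10 members were called at 15 mg/kg bw/d: Otc, Arg1, Ass1, Asl, Bckdhb, Dbt, Fah, Gls2, Sds and Tdo2. These are 23.3% of the members, beside 12.7% of all tested rows in that fit. With the 8 libraries also left out, 5 were called (11.6%), beside 4.16% of all rows. Of the 13 clock and clock output genes that could be tested, 4 were higher (Usp2 by 1.37, Dbp by 1.00, Per3 by 0.75 and Nr1d2 by 0.42 on the log2 scale), and 2 of them (Per3 and Nr1d2) again with the 8 libraries left out. The clock list's values summed to 187 to 329 per mouse, against 97.8 to 345 in control mice. Of the 11 fasting and feeding genes 1 was called (Angptl4, 0.55). Among 8 Kupffer cell and macrophage markers 1 fell (Csf1r), with summed values of 57.6 to 124 against 62.2 to 207 in control mice, and among 6 endothelial markers 1 fell (Pecam1), with 57.2 to 96.2 against 71.7 to 95.8. Of the 7 hepatocyte markers Ttr rose by 0.42 and Fgb fell by 0.27. Markers of the lobule's zones moved too: of 6 periportal ones Hsd17b13 rose (0.40, adjusted p = 0.0278), and of 11 pericentral ones Rgn (0.38, adjusted p = 0.0123) and Lect2 (0.33, adjusted p = 0.0200) rose. The periportal list summed to 905 to 1521 per mouse against 781 to 1417 in control mice, and the pericentral list to 1440 to 5076 against 1199 to 4752. In the other 46 libraries none of these cell type markers was called (adjusted p = 0.447 for Ttr, 0.751 for Fgb, 0.173 for Csf1r, 0.130 for Pecam1, 0.326 for Hsd17b13, 0.0805 for Rgn and 0.125 for Lect2). The part of these measures in the results for the members was not tested.

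At 150 mg/kg bw/d no member was called, while 2.17% of all tested rows were (limma; 5 members, 11.6%, had an unadjusted p under 0.05, beside 14.0% of all rows). The same dose raised 7 of 9 targets of PPARA, the receptor through which phthalates are known to act in rodent liver, with a median log2FC of 1.47. The members with the smallest p were Ivd (log2FC 0.26, adjusted p = 0.0804), Dbt (0.33, adjusted p = 0.130), Kmo (0.17, adjusted p = 0.281), Asl (-0.29, adjusted p = 0.288) and Gldc (-0.31, adjusted p = 0.316).

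Ivd, the isovaleryl-CoA dehydrogenase, had 22.2, 31.4 and 35.1 in control mice (lowest, median and highest) and 28.7, 35.5 and 45.9 at 150 mg/kg bw/d. Both ranges overlapped, and 13 of 14 exposed mice lay above the control median. Asl lay below the control median in 13 of 14 mice, with 101, 220 and 285 in control mice and 112, 178 and 278 at 150 mg/kg bw/d. Its groups overlapped too. The 95% interval of the difference was 0.10 to 0.43 for Ivd and -0.55 to -0.03 for Asl, not adjusted for the number of genes. The median log2FC of the members was 0.02, beside -0.01 over all rows. Without the 8 libraries no member was called either, with 3.62% of all rows called. At an unadjusted p under 0.05 stood 4 members (9.30%), beside 16.8% of all rows.

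The doses were also compared with each other. These contrasts use the same exposed groups as those against control and are no separate evidence. Between 150 and 15 mg/kg bw/d, 9 of 43 members (20.9%) were called, beside 20.0% of all tested rows. Lower at the higher dose were Ass1 (log2FC -0.62, adjusted p = 0.00211), Asl (-0.61, adjusted p = 0.000619), Otc (-0.40, adjusted p = 0.000211), Gls2 (-0.40, adjusted p = 0.0122), Tdo2 (-0.31, adjusted p = 0.0196), Bckdhb (-0.26, adjusted p = 0.00350) and Fah (-0.25, adjusted p = 0.0218). Ftcd (0.71, adjusted p = 0.0157) and Mat1a (0.35, adjusted p = 0.0437) were higher.

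For the urea cycle this was the contrast with the most called members, 3 of 6, beside 20.0% of all tested rows. This contrast was picked out after all comparisons had been seen, and the 43 members together (20.9%) lay near that share. All 14 mice at 150 mg/kg bw/d lay below the median of the group at 15 mg/kg bw/d for Otc and for Ass1, and 13 of 14 for Asl. Asl had 161, 266 and 369 at 15 mg/kg bw/d (lowest, median and highest) and 112, 178 and 278 at 150 mg/kg bw/d, so the groups overlapped. The median log2FC of the cycle was -0.32. Arg1 (log2FC -0.21, adjusted p = 0.0515) and Cps1 (log2FC -0.24, adjusted p = 0.370) also lay below 0, and Nags differed by 0.01. Other lists moved in the same contrast. The periportal marker Hsd17b13 was lower (log2FC -0.71, adjusted p = 5.2e-05), as were the pericentral Lect2 (-0.37, adjusted p = 0.00547), the hepatocyte marker Ttr (-0.37, adjusted p = 0.0331) and the clock genes Ciart (-0.95, adjusted p = 0.0361), Per3 (-0.80, adjusted p = 0.00224) and Nr1d2 (-0.30, adjusted p = 0.0185), while the endothelial Pecam1 was higher (0.39, adjusted p = 0.00900). The pericentral Tbx3 went the other way from Lect2 and was higher (0.37, limma adjusted p = 0.0298). Higher too were the endothelial Kdr (0.21, adjusted p = 0.0377), the cholangiocyte marker Sox9 (0.49, adjusted p = 0.0439) and the adipocyte marker Cfd (2.42, adjusted p = 8.405e-05). Of 7 listed stellate cell and fibroblast markers only Colec11 was called, and it was lower (-0.45, adjusted p = 0.0234). The periportal list summed to 618 to 1367 per mouse at 150 and to 905 to 1521 at 15 mg/kg bw/d. Without the 8 libraries Hsd17b13 (-0.59, adjusted p = 0.00774), Ciart (adjusted p = 0.0298), Per3 (adjusted p = 0.00931), Nr1d2 (adjusted p = 0.0420) and Cfd (adjusted p = 0.0001246) were called again. Lect2, Tbx3, Ttr, Pecam1, Kdr, Sox9 and Colec11 were not. With all libraries, of the 11 fasting and feeding genes Pdk4 (0.97, limma adjusted p = 0.00404) and Angptl4 (0.92, adjusted p = 5.59e-05) were higher and Srebf1 lower (-0.46, adjusted p = 0.0218). Of the regulators, Ppara (0.38, adjusted p = 0.0172), Creb3l3 (0.37, adjusted p = 0.00182) and Cebpa (0.30, adjusted p = 0.0470) were higher and Klf15 lower (-0.50, adjusted p = 0.00398). Only Pdk4 and Angptl4 of these were called again without the 8 libraries. The part of these measures in the urea cycle result was not tested.

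With the 8 libraries left out 5 of these 9 were called between 150 and 15 mg/kg bw/d, with 8.32% of all rows: Ass1 (-0.78, adjusted p = 0.000997), Asl (-0.57, adjusted p = 0.0164), Otc (-0.37, adjusted p = 0.00565), Bckdhb (-0.30, adjusted p = 0.0183) and Fah (-0.29, adjusted p = 0.0226). Gls2 (-0.41, adjusted p = 0.0753) and Tdo2 (-0.28, adjusted p = 0.117) kept their size but not the call. Ftcd (0.07) and Mat1a (0.00) lost the difference. Otc, Ass1, Asl and Bckdhb passed under each of the 13 alternatives, while Otc and Bckdhb did not pass the study's fold threshold. Mat1a had been called in 13 of the 27 fits that left out a single library, and was lost without replicate 3, 5, 6, 7, 8, 9 or 11 at 15 mg/kg bw/d or replicate 6, 8, 10, 11, 12, 13 or 14 at 150 mg/kg bw/d.

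**Figure D4:**
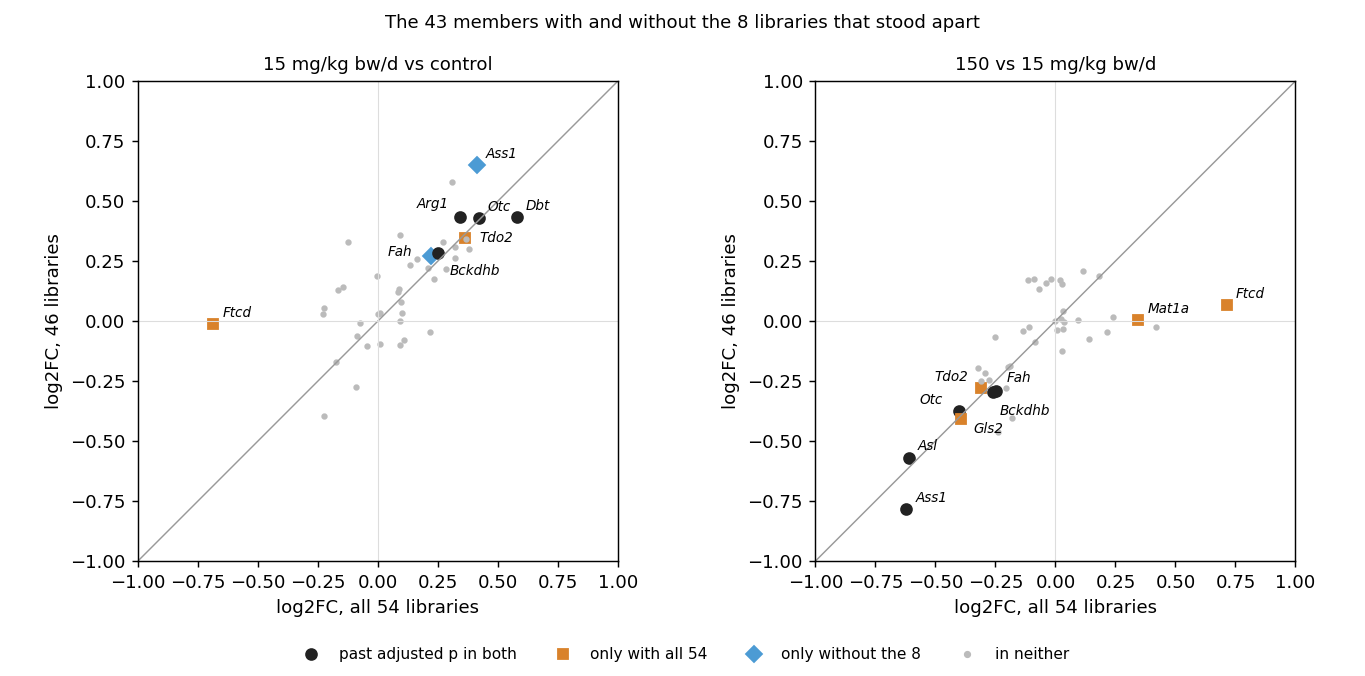
The log2FC of the 43 members with all 54 libraries (horizontal) and without the 8 that stood apart (vertical), for 15 mg/kg bw/d against control (left) and 150 against 15 mg/kg bw/d (right), with the line of equality. Ftcd moves from -0.69 and 0.71 to about 0, while Otc stays at 0.42 and 0.43 on the left and -0.40 and -0.37 on the right.

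Between 15 and 1.5 mg/kg bw/d 12 of 43 members (27.9%) were called, beside 21.4% of all tested rows. The urea cycle gave Otc (log2FC 0.40, adjusted p = 0.000324) and Asl (0.36, adjusted p = 0.0447). Tryptophan breakdown gave Tdo2 (0.41, adjusted p = 0.00226), Ido2 (0.37, adjusted p = 0.0377) and Kynu (0.28, adjusted p = 0.0325), all higher at 15 mg/kg bw/d, and Haao (-0.37, adjusted p = 0.00931), which was lower. The others were Oat (0.63, adjusted p = 0.00799), Dbt (0.58, adjusted p = 0.000282), Sds (0.46, adjusted p = 0.00329), Gls2 (0.39, adjusted p = 0.0159), Hgd (0.24, adjusted p = 0.0364) and Ftcd, which fell by 0.97 (adjusted p = 0.00131). Other lists moved too. Of the hepatocyte markers Ttr rose (0.51, limma adjusted p = 0.00392) and Fgb (-0.45, adjusted p = 0.000363) and Apoa1 (-0.40, adjusted p = 0.00612) fell. The zone markers Hsd17b13 (0.45, adjusted p = 0.00976) and Rgn (0.38, adjusted p = 0.00899) rose and Tbx3 (-0.38, adjusted p = 0.0276) fell. The clock gene Nr1d2 rose (0.30, adjusted p = 0.0208) and Krt19 of 5 cholangiocyte markers fell (-0.89, adjusted p = 0.0428).

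Without the 8 libraries none of these marker and clock genes was called, and their part in the results for the members was not tested. Several calls of members were fragile. In the other 46 libraries 3 members were called, Otc (0.39, adjusted p = 0.00800), Ass1 (0.61, adjusted p = 0.0177) and Tdo2 (0.36, adjusted p = 0.0444), with 5.05% of all rows. Oat then had a log2FC of 0.31 (adjusted p = 0.387), Haao of -0.11 (adjusted p = 0.618) and Ftcd of -0.20 (adjusted p = 0.478). Dbt (0.40, adjusted p = 0.0679), Sds (0.41, adjusted p = 0.0688), Gls2 (0.43, adjusted p = 0.0753) and Asl (0.32, adjusted p = 0.267) lost the call as well, as did Hgd (0.22), Ido2 (0.29) and Kynu (0.19). With all other libraries kept, Asl passed in 11 of 26 fits without a single library (those without replicate 5, 6, 8, 11 or 12 at 1.5 or replicate 1, 3, 7, 10, 12 or 13 at 15 mg/kg bw/d). Hgd was lost without replicate 1, 3, 7, 9 or 13 at 1.5 or 2, 3, 4, 5, 8, 9 or 11 at 15 mg/kg bw/d. Ido2 was lost without replicate 1, 3, 5, 9, 10 or 13 at 1.5 or 4, 5, 6, 8 or 9 at 15 mg/kg bw/d, and Kynu without replicate 3, 6 or 13 at 1.5 or 2, 5, 6 or 8 at 15 mg/kg bw/d.

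Between 150 and 1.5 mg/kg bw/d Ivd was the single member called, beside 4.61% of all tested rows. Its values were 20.6, 29.6 and 39.9 at 1.5 mg/kg bw/d (lowest, median and highest) and 28.7, 35.5 and 45.9 at 150 mg/kg bw/d, with 13 of 14 mice above the lower dose's median (log2FC 0.30 ± 0.08, SE; adjusted p = 0.0256). The call was lost without replicate 3 or 9 at 1.5 or replicate 5 at 150 mg/kg bw/d. Without the 8 libraries Ivd (0.30, adjusted p = 0.0280) and Mat1a (0.32, adjusted p = 0.0490) were called, with 6.88% of all rows.

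In all, 19 of the 43 members (44.2%) were called in at least 1 of the 6 comparisons, beside 33.8% of all tested rows, and 24 in none. Among those 24 were Cps1, Nags, Glul, Glud1, all 4 transaminases Got1, Got2, Gpt and Gpt2, Aass, Prodh, Prodh2, Hpd, Tat, Bhmt, Cbs, Cth, Hal, Uroc1 and Amdhd1. With the study's fold threshold of 0.5 added, the members left at 15 mg/kg bw/d were Dbt and Ftcd against control (4.65%, beside 3.72% of all rows), with Oat added against 1.5 mg/kg bw/d (6.98%, beside 7.15%). Between 150 and 15 mg/kg bw/d they were Ass1, Asl and Ftcd (6.98%, beside 6.73%). The group mean was highest at 15 mg/kg bw/d for 21 members, and lowest at 1.5 mg/kg bw/d for 17. These counts include the 6 libraries at 15 mg/kg bw/d that stood apart, and the same was not counted over all rows. They are therefore not read as particular to the members.

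Genes of the same pathways outside the 43 were counted from a list of 117 other enzymes, transporters and regulators, of which 102 could be tested. At 15 mg/kg bw/d 16 rose and 7 fell (median log2FC 0.08), beside 14.2% of all tested rows called. The lysine enzymes Pipox (0.65 without the 8 libraries, 0.50 with all, adjusted p = 0.00145 with all) and Gcdh (0.39, adjusted p = 0.000994) rose, 2 of 4 tested. Of 19 other branched-chain genes 4 rose, among them Mccc2 (0.61) of leucine breakdown and Dld (0.34), the E3 subunit that the branched-chain complex shares with the glycine cleavage system. Klf15, a regulator known to induce amino acid breakdown, rose by 0.66. The other regulators called both fell, Ddit4 by 0.70 (limma adjusted p = 0.00700) and Crtc2 by 0.43 (adjusted p = 0.00286). Of 13 transporters 2 fell, Slc25a22, a mitochondrial glutamate carrier, by 0.61 and Slc3a2, the heavy chain of several amino acid transporters, by 0.32. With the 8 libraries left out 7 rose and 2 fell, beside 5.31% of all rows, and Pipox, Gcdh, Dld, Klf15, Slc25a22 and Slc3a2 were among them. Mccc2 (adjusted p = 0.111), Ddit4 (adjusted p = 0.193) and Crtc2 (adjusted p = 0.0733) were not.

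At 1.5 mg/kg bw/d 1 of the 102 rose (Shmt2, of serine and glycine exchange) and 1 fell (Slc25a22). At 150 mg/kg bw/d 5 rose and none fell, among them Aadat of tryptophan and lysine breakdown, Ppm1k, the phosphatase that switches the branched-chain complex on, Shmt2 and the receptor Ppara. None of them is a member, and their number stands beside the 2.17% of all tested rows. Between 150 and 15 mg/kg bw/d 15 were higher and 11 lower, beside 20.0% of all rows, with Slc25a22 higher by 0.68 and Pipox lower, by a log2FC of -0.50.

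Across the 54 mice, 4 pairs of members were examined after the mean of each dose group had been subtracted. Cps1 and Otc, the mitochondrial steps of the urea cycle, varied together most closely (Pearson r = 0.68, adjusted p = 2.667e-05; Spearman rho = 0.62, adjusted p = 2e-05; 2-sided permutation test with 100000 resamples, adjusted over the 4 pairs). Within the groups r was 0.82 in control mice and 0.75, 0.59 and 0.44 at the rising doses. Without the 2 mice farthest from the median of Cps1 it was 0.65, and without the 8 libraries 0.70. Values rescaled to the same sum in each mouse gave 0.54.

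Hal and Uroc1, consecutive steps of histidine breakdown, gave r = 0.57 (rho = 0.56; permutation test, adjusted p = 2.667e-05 and 5.333e-05), r = 0.56 without the 2 farthest mice, and r = 0.75, 0.47, 0.67 and 0.63 within the control group and the doses in rising order. Among the 7 remaining mice at 15 mg/kg bw/d without the 8 libraries r was -0.10, and in all 46 it was 0.52. Glul and Oat, both known as genes of the central-vein zone, gave r = 0.57 (rho = 0.58; permutation test, adjusted p = 2.667e-05 and 2e-05), r = 0.54 without the 2 farthest mice and r = 0.57 without the 8 libraries, with 0.69, 0.36, 0.53 and 0.76 within the groups in the same order. Sds and Tat, both known to rise with glucagon and glucocorticoid, were the loosest pair (r = 0.36, rho = 0.28; permutation test, adjusted p = 0.00697 and 0.0421). Their r was 0.61 in control mice and 0.16, 0.33 and 0.31 at the rising doses, and 0.32 without the 2 farthest mice. The smallest p that the resamples allow is 1e-05.

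**Figure D5:**
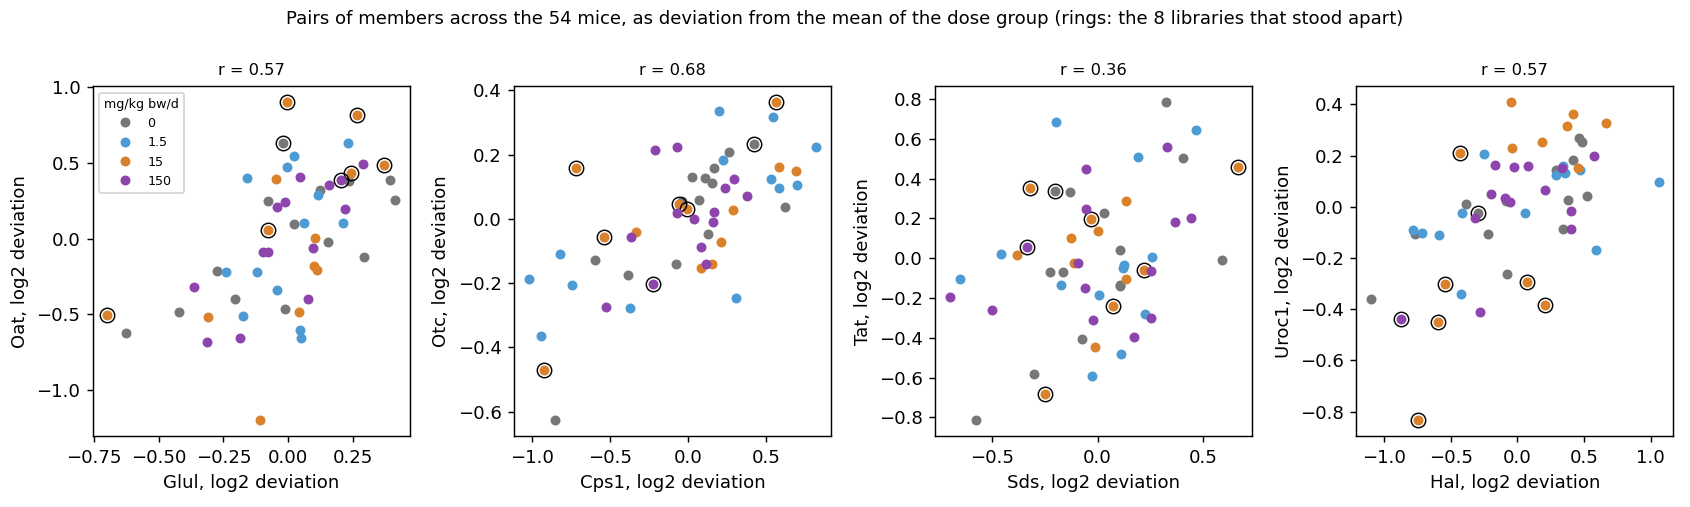
Each of the 54 mice as its deviation from the mean of its dose group on the log2 scale, for 4 pairs of members, coloured by dose, with rings around the 8 libraries that stood apart. The points rise together most clearly for Cps1 with Otc (r = 0.68) and least for Sds with Tat (r = 0.36).

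Some members share exons with other genes in the annotation, and whether the counting used strand is not given in the sources used here. Glul and Afmid overlap Mir8114 and Gm20708 on the same strand, and Nags, Glul, Gls2, Sds, Got2, Afmid, Bckdha and Bhmt overlap a gene on the opposite strand, so reads there may be shared. None of Otc, Arg1, Ass1, Asl, Tdo2, Bckdhb, Dbt and Ftcd does.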

How the data were processed

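Total RNA from the medial liver lobe was made into QuantSeq 3′ mRNA libraries, and per the labels and the study's methods the reads were processed with STAR, RSEM and Salmon on GRCm38. The values deposited by the authors are a signal per gene: TPM as whole numbers over a factor for each sample, since within 0.01 every value was a whole multiple of 1 step (0.764 to 1.11) and the whole numbers summed to 948342 to 980641 in each sample. They are not reads, so sequencing depth is unknown, counting error cannot be given and no test for counts was run. The factor was taken as deposited; the study's methods name DESeq2 for its own tests, which was not run here.

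Samples were grouped by dose from their labels. In R 4.3.3, limma 3.58.1 (eBayes with a trend) was run on log2(value + 1) over all 4 groups for the 11431 of 20162 rows with a mean of at least 1, with Benjamini-Hochberg adjustment over all of them. The main fit was first tested on simulated data, and the alternative fits were not. The members and lists were chosen with earlier results of these data known, so lists are given as counts and medians with no test. Every member is named with its control level, every member with an adjusted p under 0.05 in a comparison with its log2FC, and where fewer than 5 passed against control, the 5 with the smallest p; genes of other lists are named where they passed, at most 6 per list by the size of the log2FC, with clock and marker genes given beside the results they move with. Gene positions are from GENCODE M21 on GRCm38. Same-numbered samples of different groups did not deviate together on average, so the numbers gave no sign of pairing. A mean over all pairs cannot exclude a link between some of them. Alternatives were a pseudocount of 0.1 or 5, a minimum mean of 5 or no filter, quantile normalization, rescaling to an equal sum, only the groups compared, a replicate block, array quality weights, each library left out and the study's fold threshold. Removal of the GC trend, of samples with a low step (under 0.9) and of the 8 libraries that stood apart were chosen after seeing the data. The E-box, TATA and CCAAT letters were added to the motifs in the same way. Some genes of the other lists are not reported here.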

Additional observations from a re-analysis of the deposited data

How the results depend on the processing

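Removing the trend with GC raised the number of called members at 15 mg/kg bw/d against control from 6 to 10, and leaving out single libraries gave 5 to 12, with 12 without replicate 7 at that dose. The study's fold threshold left 2 there, 3 for 15 against 1.5, 3 for 150 against 15 and 0 for both 1.5 against control and 150 against 1.5 mg/kg bw/d. Without the 8 libraries that stood apart the number was 3 instead of 12 for 15 against 1.5 (4 with the GC trend also removed), 5 of the former 9 for 150 against 15, and 2 instead of 1 for 150 against 1.5 mg/kg bw/d (also 2 with the GC trend removed). Rescaling to an equal sum per sample gave 14 for 150 against 15, 1 for 150 against control (Asl, lower) and 0 for 150 against 1.5 mg/kg bw/d. At 150 mg/kg bw/d against control 1 member was called with array quality weights (Dbt), with only the groups compared (Ivd), and without the 8 libraries and the GC trend (Dbt). With only the groups compared 2 were called for 150 against 1.5 mg/kg bw/d (Mat1a and Oat), and without the samples with a low step the 1 called there was Asl, not Ivd. At 15 mg/kg bw/d against control Bckdhb was lost on rescaling and Dbt without the 8 libraries and the GC trend. The call of Kmo at 1.5 mg/kg bw/d was lost (0 members) without a filter, without the samples with a low step, and with the replicate number as a block. Leaving out single libraries gave 0 to 1 member at 1.5 against control, 0 at 150 against control, 8 to 15 for 15 against 1.5, 8 to 11 for 150 against 15 and 0 to 1 for 150 against 1.5 mg/kg bw/d. The cause of these shifts was not tested. Except where given above, the share of all tested rows in these fits is not given here. These counts are therefore not read as particular to the members. A single called value changed direction: Ftcd at 15 mg/kg bw/d against control, with a log2FC of 0.0689 without the 8 libraries and the GC trend.

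The replicate block was tried although the numbers gave no sign of pairing. Over 79 pairs of same-numbered samples the mean correlation of deviations was -0.0025 (-0.359 to 0.243), with 12.7% above 0.1, against 14.0% of 1014 other pairs. With the block 0, 7, 0, 10, 10 and 1 members were called in the 6 comparisons, in the order 1.5, 15 and 150 against control, 15 against 1.5, 150 against 15 and 150 against 1.5 mg/kg bw/d. The share of all tested rows with the block is not given here either. The 4 correlations across mice stayed past the threshold under all 5 alternatives, with r from 0.54 to 0.70 for Cps1 with Otc, 0.48 to 0.58 for Hal with Uroc1, 0.44 to 0.57 for Glul with Oat and 0.32 to 0.38 for Sds with Tat. The table keeps no sequencing depth, so the precision of low genes such as Bckdk and Ido2 rests on the spread between mice alone. Each mouse is a single library, and time of day and feeding state at sampling are not given in the labels.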
